A study of Homo sapiens with 3 samples.

Results

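Polyamine synthesis was followed through the transcripts of its 4 enzymes ODC1, AMD1, SRM and SMS, the acetyltransferase SAT1, the antizymes OAZ1 and OAZ2, the antizyme inhibitor AZIN1, and MTAP and MAT2A on the methionine side. The 10 genes were chosen by symbol, for their role in the pathway, with earlier results of these data known. Of these, 9 were analysed among 17329 genes, and MTAP was not analysed here. Polyadenylated RNA came from Jurkat cells, an established human T-lineage acute lymphoblastic leukaemia line, in 3 libraries, 1 per condition. The oxamate+lactate culture was kept for 48 hours with 50 mM sodium oxamate, which inhibits lactate dehydrogenase, and 10 mM L-sodium lactate. The oxamate culture had 50 mM sodium oxamate for 48 hours, and the control culture had standard medium for 48 hours. The study asked how histone H3 lysine 18 lactylation bears on transcription, and these RNA values measure neither that mark nor lactate. With 1 library of 1 cell line per condition, the differences below have no replicate check and no test was possible. The words "higher" and "lower" compare single libraries.

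The polyamines putrescine, spermidine and spermine are small positively charged molecules that bind RNA and DNA, and dividing cells need them. ODC1 makes putrescine from ornithine, AMD1 decarboxylates S-adenosylmethionine to provide the aminopropyl donor, and SRM and SMS use that donor to build spermidine and spermine in turn. The pathway is held in balance largely after transcription. Polyamines favour the ribosomal frameshift that makes full-length antizyme, antizyme delivers ODC1 to the proteasome, and the translation and turnover of AMD1 and SAT1 respond to polyamines as well. Lymphocytes raise polyamine synthesis when they grow, and ODC1 is a classical target of the transcription factor MYC.

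The values are normalized counts as deposited by the authors. They summed over genes to 8171633 in the oxamate+lactate library, 8821115 in the oxamate library and 8220199 in the control library. The depth in reads is unknown, so counting intervals are not given. Ratios are log2 of (value + 1) over (value + 1), for the 12292 genes that reached a floor of 50 in their mean value across libraries, and all 9 genes passed that floor. The median ratio of all genes was 0.08 for oxamate against control, -0.09 for oxamate+lactate against oxamate and -0.01 for oxamate+lactate against control. With columns scaled to equal sums over genes these medians became -0.02, 0.02 and -0.00168, so differences of about 0.1 depend on the scaling. The 18 ERCC spike-in RNAs with a mean of at least 100, which were added after extraction and show technical spread only, had ratios from -0.24 to 0.29 (SD 0.13) for oxamate against control. Their ratios ran from -0.39 to 0.10 (SD 0.11) for oxamate+lactate against oxamate and from -0.39 to 0.39 (SD 0.19) for oxamate+lactate against control. In bulk RNA, fewer cells of a kind and less RNA per cell cannot be told apart. Of the T-lineage markers, 10 of 10 were analysed and over the floor in the mean, from CD2 at 168 in oxamate+lactate, 166 in oxamate and 128 in control up to CD3E at 4011 in oxamate+lactate, 4128 in oxamate and 4488 in control. Of the markers of B cells and myeloid cells, CD79A was at 71 in oxamate+lactate, 62 in oxamate and 76 in control.

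Promoter sequences are shown for the genes whose transcripts differed most or which carry the MYC-type element, since they let the RNA values below be read beside the DNA at the start sites. They come from RefSeq on GRCh38.p14, in windows from 250 bases before to 50 bases after an annotated start. Windows were used for 9 of the 10 genes, all but AZIN1, 12 windows in all. Capitals mark the E-box CACGTG, the TATA box letters TATAA and the CCAAT box, searched on both strands.
ODC1, second annotated start, chr2:10447983-10448062, minus strand: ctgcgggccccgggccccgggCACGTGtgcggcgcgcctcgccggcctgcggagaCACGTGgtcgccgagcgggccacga
SRM, chr1:11060139-11060238, minus strand: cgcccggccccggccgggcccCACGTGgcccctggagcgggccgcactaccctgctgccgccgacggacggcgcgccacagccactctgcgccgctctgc
SAT1, chrX:23783073-23783172, plus strand: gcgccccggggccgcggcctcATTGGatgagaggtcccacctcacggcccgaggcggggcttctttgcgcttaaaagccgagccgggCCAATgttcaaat
AMD1, chr6:110874685-110874784, plus strand: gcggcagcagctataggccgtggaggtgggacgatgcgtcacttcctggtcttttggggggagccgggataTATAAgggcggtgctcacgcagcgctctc
MAT2A, chr2:85539068-85539167, plus strand: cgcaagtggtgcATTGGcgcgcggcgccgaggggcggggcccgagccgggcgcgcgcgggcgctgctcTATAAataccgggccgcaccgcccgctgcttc

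Of the 12 windows, 2 held the E-box, the second ODC1 window and the SRM window, and 7.26% of the 35116 windows of all genes held it. No excess over the 7.26% is read from these 2 windows. The second ODC1 window had 2 E-boxes, which lay in an intron of 1 transcript that begins further upstream in GENCODE 29, and the SRM window had 1. The TATA letters occurred in 6 of the 12 windows, those of ODC1 (first start), AMD1 (2 of 3 windows), OAZ1, MTAP and MAT2A, and 20.4% of all windows held them. The letters lay 29 bases before the AMD1 start shown and 32 bases before both the MAT2A start and the first ODC1 start. The 2 AMD1 windows overlap and hold the same match, at chr6:110874756-110874760, so it is counted 2 times. Relative to the start, the OAZ1 match lay downstream, at 7, and the MTAP matches lay upstream, from -215 to -179. No excess over the 20.4% is read from the 6 windows. The CCAAT box occurred in 7 of the 12 windows, 2 times each in SAT1, SRM and OAZ1 and 1 time each in SMS, MTAP, MAT2A and 1 window of AMD1, and 34.6% of all windows held it. These matches describe the letters and show no binding.

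For oxamate against control, the largest difference among the 9 genes was that of SAT1, which was more than 2-fold lower in oxamate. AMD1 and MAT2A were about 1.35-fold higher, and ODC1, SRM, SMS, OAZ1, OAZ2 and AZIN1 lay within the range of the ERCC RNAs. Outside the 9, other breakdown genes differed in direction. The spermine oxidase gene SMOX was more than 2-fold lower and the acetyltransferase-like gene SATL1 was lower (-0.57), while SAT2, a relative of SAT1, was higher (0.43). Past a threshold of 1.5-fold, 1 of the 9 genes was lower, against 3.98% of all genes, and 0 were higher, against 7.48%. The median of the 9 was -0.01, against 0.08 for all genes, and 3 of 9 lay above the median of all genes.

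**Figure D1:**
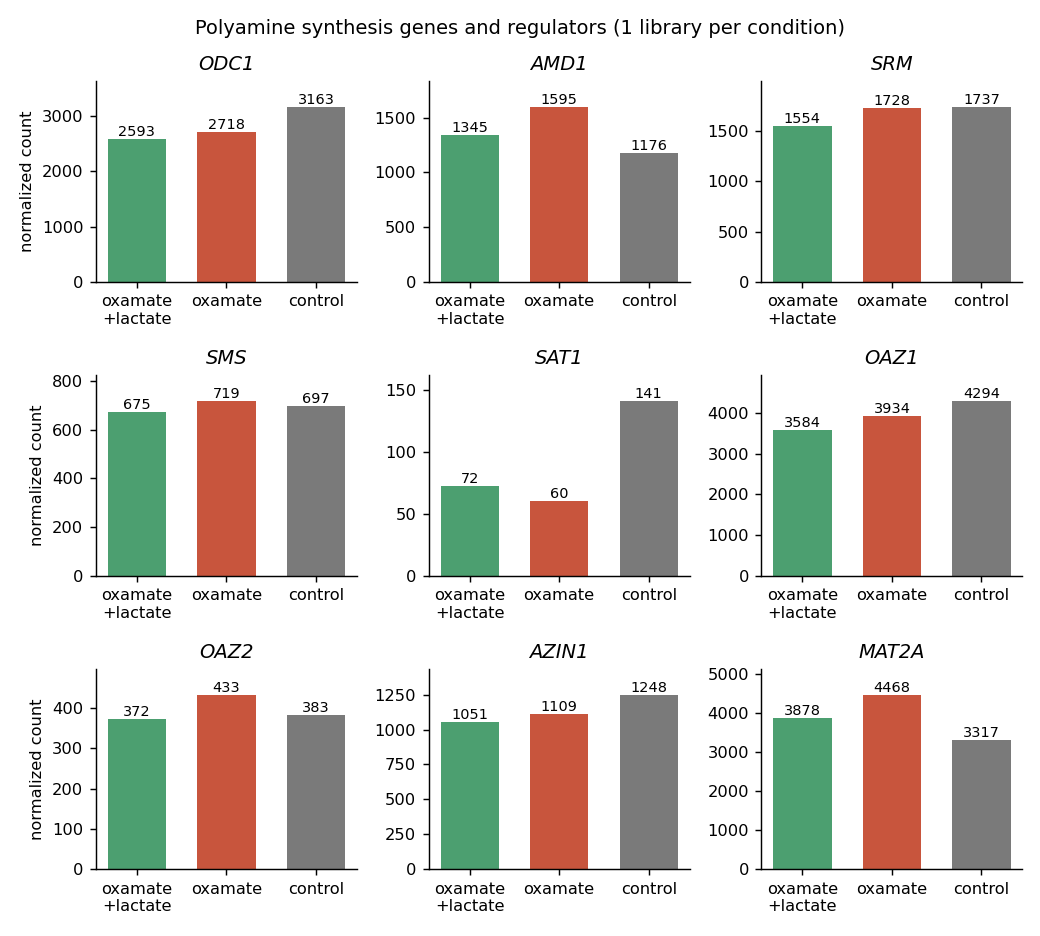
Normalized counts of the 9 genes (y axis, from 0, a scale per gene) in the oxamate+lactate, oxamate and control libraries, 1 bar per library with no error bar since each condition has 1 library. SAT1 stands at 72 in oxamate+lactate, 60 in oxamate and 141 in control, while ODC1 stands at 2593 in oxamate+lactate, 2718 in oxamate and 3163 in control.

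ODC1, the ornithine decarboxylase that opens the pathway, had 2593 normalized counts in oxamate+lactate, 2718 in oxamate and 3163 in control. Both treated libraries were below control, with log2 ratios of -0.22 for oxamate against control and -0.29 for oxamate+lactate against control. The first of these lay inside the ERCC range, and 18.2% of all genes had a lower one. Relative to the median of all genes it was -0.30. MYC, the activator of ODC1, went the other way, with 3922 in oxamate+lactate, 5299 in oxamate and 2739 in control (0.95 for oxamate against control). SRM, which also carries an E-box in the window shown, had 1554 in oxamate+lactate, 1728 in oxamate and 1737 in control, a log2 ratio of -0.01 for oxamate against control. In oxamate, a higher MYC transcript level was thus measured beside ODC1 and SRM transcript levels that were not higher. AMD1 (0.44) and MAT2A (0.43) were higher in oxamate than in control. Whether MYC acts on any of these genes here was not tested.

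AMD1, S-adenosylmethionine decarboxylase, had 1345 normalized counts in oxamate+lactate, 1595 in oxamate and 1176 in control. It was highest in oxamate (log2 ratio 0.44 against control, 1.36-fold) and in between with lactate added (0.19 against control, and -0.25 against oxamate). The oxamate ratio exceeded that of 86.0% of all genes, lay outside the ERCC range and was 0.36 relative to the median of all genes. After correction for GC content and length it was 0.60, past 1.5-fold, and the AMD1 transcript has 38.0% GC. GENCODE 29 names 4 pseudogenes after AMD1 and 2 after SRM. How the authors' counting treated reads that match a gene and its pseudogene is unknown.

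MAT2A, the methionine adenosyltransferase that makes S-adenosylmethionine in most cells, stands upstream of AMD1 and showed nearly the same pattern. It had 3878 normalized counts in oxamate+lactate, 4468 in oxamate and 3317 in control. The log2 ratios were 0.43 for oxamate against control, -0.20 for oxamate+lactate against oxamate and 0.23 for oxamate+lactate against control. The first exceeded that of 85.4% of all genes, and 22.1% of all genes differed at least as much. ADA, a gene outside these lists, had 0.45, -0.23 and 0.22 in the same comparisons. Likeness over 3 libraries is thus easily met and does not set AMD1 and MAT2A apart. Per kilobase of transcript, MAT2A stood at 3.52 times AMD1 in oxamate+lactate, 3.42 times in oxamate and 3.44 times in control, a ratio that no scaling of the libraries can change. Relative to ODC1 both were higher in the treated libraries. The AMD1 to ODC1 ratio per kilobase was 0.400 in oxamate+lactate, 0.453 in oxamate and 0.287 in control. The MAT2A to ODC1 ratio was 1.41 in oxamate+lactate, 1.55 in oxamate and 0.987 in control. Exons of MAT2A and GGCX, on the opposite strand, overlap in GENCODE 29, and the libraries were unstranded. GGCX had 846 in oxamate+lactate, 934 in oxamate and 713 in control. How reads from the shared positions were counted is unknown. The MAT2A values could include GGCX reads or lack some of their own, which was not tested. METTL16, the methyltransferase that controls splicing of MAT2A RNA, had 614 in oxamate+lactate, 723 in oxamate and 727 in control. MAT2B, the regulatory subunit that partners MAT2A, had 648 in oxamate+lactate, 709 in oxamate and 665 in control.

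SRM, spermidine synthase, and SMS, spermine synthase, were the steadiest of the enzymes for oxamate against control. SMS had 675 normalized counts in oxamate+lactate, 719 in oxamate and 697 in control. Its log2 ratio was 0.04 for oxamate against control and changed sign under other scalings (-0.06 to 0.12). The SMS to SRM ratio per kilobase was 0.299 in oxamate+lactate, 0.287 in oxamate and 0.277 in control.

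**Figure D2:**
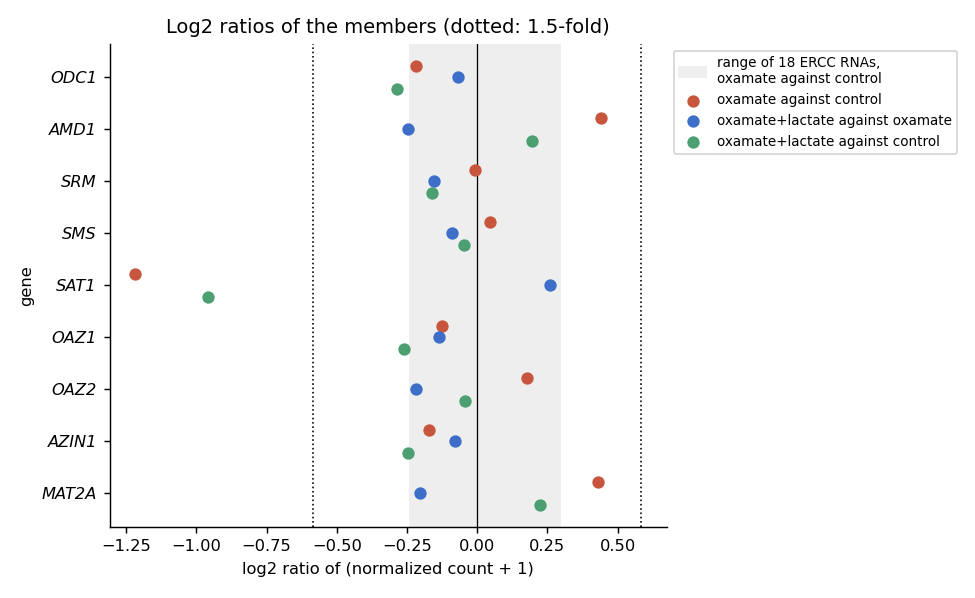
Log2 ratios (x axis) of the 9 genes (y axis) in the 3 comparisons, with dotted lines at 1.5-fold and the range of the 18 ERCC RNAs for oxamate against control shaded. Of the 9 genes, SAT1 alone crosses a dotted line (-1.22 and -0.96), and AMD1 (0.44) and MAT2A (0.43) lie above the shaded range for oxamate against control.

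SAT1 encodes spermidine/spermine N1-acetyltransferase, which marks polyamines for export or oxidation. It had 72 normalized counts in oxamate+lactate, 60 in oxamate and 141 in control. Both treated libraries were below control. The log2 ratio was -1.22 for oxamate against control, or 2.33-fold lower, and -0.96 for oxamate+lactate against control, or 1.95-fold lower. Set against the all-gene median, the first was -1.30. Of all genes, 0.415% and 0.447% had lower ratios in these comparisons, which share the control library. SAT1 had the lowest level of the 9 genes per kilobase in each library (67.6 in oxamate+lactate, 56.3 in oxamate and 132 in control), and ratios of low genes scatter more. Among the 4018 genes with a mean of 50 to 200, the share that was 2-fold lower or more in oxamate was 1.79%, against 0.879% of all genes. The 8 ERCC RNAs with a mean in that span had ratios from -0.42 to 0.29. For oxamate+lactate against oxamate the SAT1 ratio was 0.26, and 96.0% of all genes had a lower one. It lay just above the ratios of the same 8 ERCC RNAs, which ran from -0.39 to 0.23.

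SMOX encodes spermine oxidase, which turns spermine back into spermidine, and had 247 normalized counts in oxamate+lactate, 170 in oxamate and 353 in control. Its log2 ratios were -1.05 for oxamate against control (2.07-fold lower), 0.54 for oxamate+lactate against oxamate and -0.51 for oxamate+lactate against control. The oxamate+lactate library thus lay between the others, and 99.6% of all genes had a lower ratio than SMOX for oxamate+lactate against oxamate. Among the 2851 genes with a mean of 200 to 400, the share that was 2-fold lower or more in oxamate was 0.526%. The other breakdown genes did not share one direction. SATL1, an acetyltransferase-like gene, had 60 in oxamate+lactate, 51 in oxamate and 76 in control (-0.57 for oxamate against control), and its exons overlap APOOL on the opposite strand. SAT2, a relative of SAT1 that acts mainly on other substrates, had 88 in oxamate+lactate, 80 in oxamate and 59 in control (0.43).

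OAZ1, the main antizyme, had 3584 normalized counts in oxamate+lactate, 3934 in oxamate and 4294 in control. AZIN1, an ODC1-like protein without enzyme activity that binds antizyme away from ODC1, had 1051 in oxamate+lactate, 1109 in oxamate and 1248 in control. Both were lower in the treated libraries to about the same degree as ODC1. The log2 ratios were -0.13 for OAZ1 and -0.17 for AZIN1 for oxamate against control, and -0.26 and -0.25 for oxamate+lactate against control. Each lay inside the ERCC range of its comparison. Their ratios to each other differed little between libraries. Per kilobase, OAZ1 stood at 3.19 times ODC1 in oxamate+lactate, 3.34 times in oxamate and 3.14 times in control. The AZIN1 to OAZ1 ratio per kilobase was 0.0713 in oxamate+lactate, 0.0686 in oxamate and 0.0707 in control. OAZ2, a second antizyme, had 372 normalized counts in oxamate+lactate, 433 in oxamate and 383 in control, highest in oxamate (0.18 against control). Its ratio to OAZ1 per kilobase was 0.0616 in oxamate+lactate, 0.0653 in oxamate and 0.0529 in control. OAZ1 shares exon sequence with a coding gene on the same strand in GENCODE 29 and AZIN1 with an antisense gene, which could not be separated here.

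In order of level per kilobase, OAZ1 led in each library (3122 in oxamate+lactate, 3427 in oxamate and 3740 in control), and AZIN1, OAZ2 and SAT1 closed the list in that order. The places between changed. MAT2A was second in oxamate+lactate at 1376 and in oxamate at 1585, but in control, at 1177, it stood below SRM at 1372 and ODC1 at 1192. AMD1 stood above SMS in oxamate+lactate (391 and 367) and in oxamate (464 and 391), and below it in control (342 and 379). With 1 library per condition, neighbours this close cannot be told apart. Levels per kilobase rest on the longest coding transcript in GENCODE 29, which may not be the one these cells use.

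**Figure D3:**
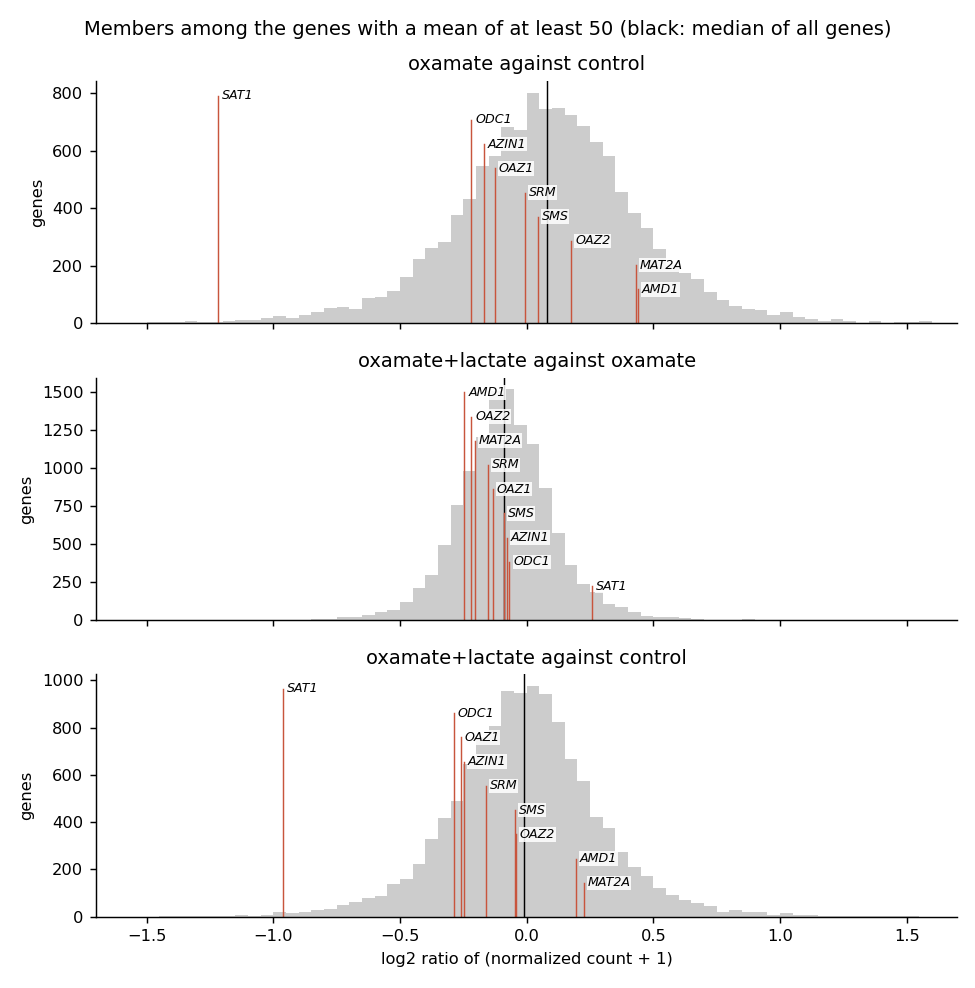
Histograms of log2 ratios (x axis) for the 12292 genes over the floor (y axis, number of genes) in the 3 comparisons, with the 9 genes as red lines whose height only separates the labels. SAT1 stands in the lower tail in the comparisons with control, and the other 8 genes lie between -0.29 and 0.44 in all 3 comparisons.

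Between oxamate+lactate and oxamate, 0 of the 9 genes were at least 1.5-fold higher, against 0.252% of all genes, and 0 were lower, against 0.903%. With 9 genes, that is near the shares of all genes. The median of the 9 was -0.13, against -0.09 for all genes. The lowest ratios were those of AMD1 (-0.25), OAZ2 (-0.22) and MAT2A (-0.20), and the highest was that of SAT1 (0.26). ODC1 (-0.07), AZIN1 (-0.08) and SMS (-0.09) changed sign under other scalings. For oxamate+lactate against control, 1 of 9 genes, SAT1, was at least 1.5-fold lower, against 3.07% of all genes, and 0 were higher, against 2.99%. The median of the 9 was -0.16, against -0.01 for all genes. The comparisons share libraries, so their values are set side by side and not taken as independent.

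The pathway around these genes was described with 47 further genes, also chosen with earlier results of these data known. Of these, 40 were analysed and 37 were over the floor. In oxamate against control 4 were at least 1.5-fold higher (MYC, MYCN, MAT1A and GATM) and 2 lower (SMOX and SLC3A2), shares to be read against 7.48% and 3.98% of all genes. With lactate added, 0 passed 1.5-fold in each direction against oxamate alone, near the 0.252% higher and 0.903% lower of all genes. Against control, the oxamate+lactate library had 2 higher (MYCN and MAT1A) and 1 lower (EIF5A2), beside 2.99% and 3.07% of all genes. The median of the 37 was 0.03 for oxamate against control, against 0.08 for all genes.

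**Figure D4:**
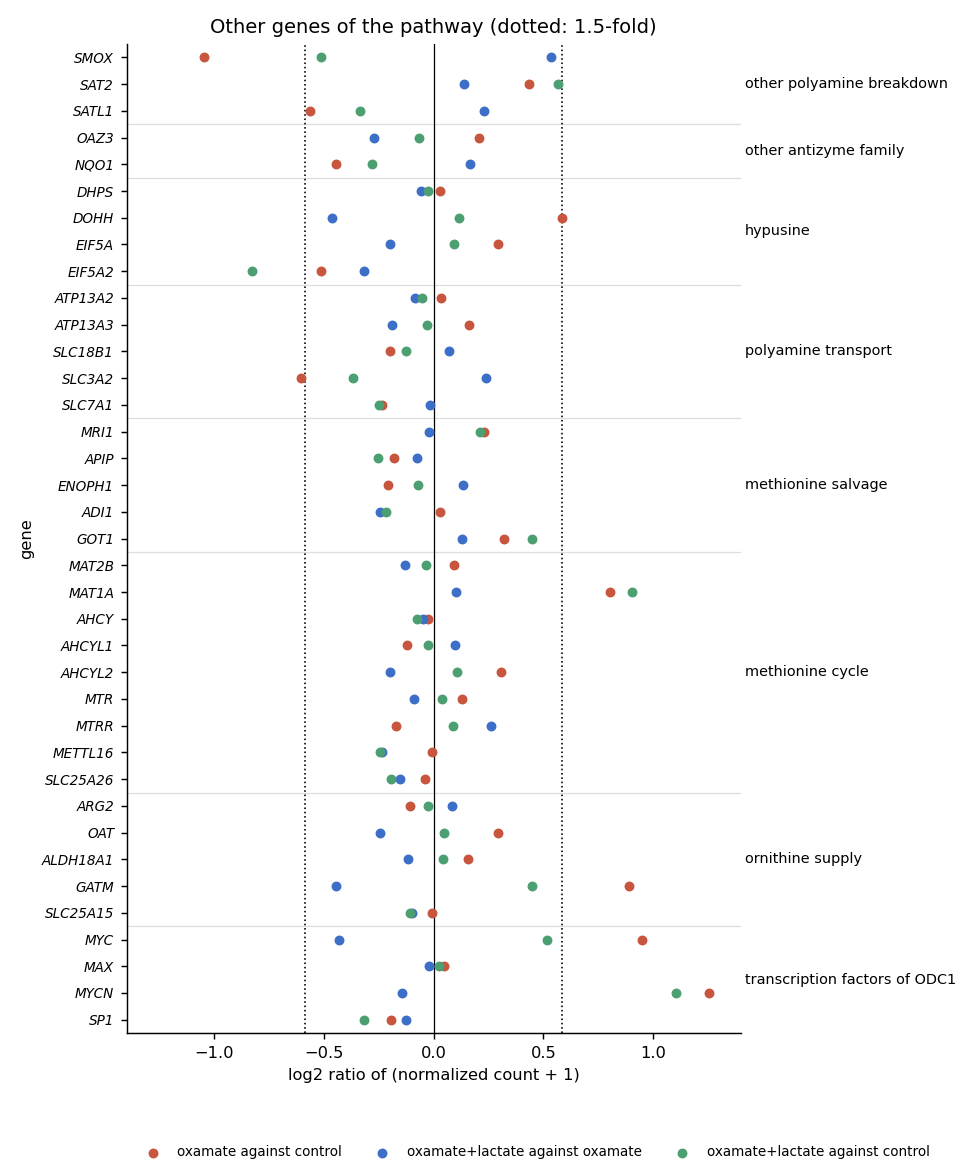
Log2 ratios (x axis) of the 37 further pathway genes over the floor (y axis, grouped by role) in the 3 comparisons, with dotted lines at 1.5-fold. SMOX lies at -1.05 and MYCN at 1.25 for oxamate against control, and most genes stay between the dotted lines.

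Hypusine is a modified lysine that DHPS and DOHH make on the translation factor EIF5A from spermidine. DOHH, the hydroxylase of the final step, had 395 normalized counts in oxamate+lactate, 546 in oxamate and 364 in control. It was highest in oxamate (0.58 against control, just short of 1.5-fold, which it passed with equal ERCC sums) and lower again with lactate (-0.47 against oxamate). EIF5A itself had 3667 in oxamate+lactate, 4209 in oxamate and 3434 in control (0.29 for oxamate against control). DHPS, which overlaps WDR83 on the opposite strand, had 1025 in oxamate+lactate, 1067 in oxamate and 1045 in control. EIF5A2, the low second form, had 48 in oxamate+lactate, 60 in oxamate and 86 in control, with -0.83 for oxamate+lactate against control.

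Among transport genes, SLC3A2, the heavy chain of several amino acid exchangers and also linked to polyamine export, had 3434 normalized counts in oxamate+lactate, 2915 in oxamate and 4432 in control (-0.60 for oxamate against control, 1.52-fold lower). SLC7A1, a carrier of arginine and ornithine, had 4178 in oxamate+lactate, 4227 in oxamate and 4975 in control (-0.24). The lysosomal polyamine exporter ATP13A2 was at 852 in oxamate+lactate, 904 in oxamate and 884 in control. Its relative ATP13A3 was at 1690 in oxamate+lactate, 1930 in oxamate and 1724 in control. Both differed by at most 0.19 on the log2 scale in each comparison.

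On the methionine side, 5 genes of the salvage route downstream of MTAP were over the floor, and 0 passed 1.5-fold in each of the 3 comparisons. With 5 genes, that is near the share of all genes that passed, 7.48% higher and 3.98% lower for oxamate against control, 0.252% and 0.903% for oxamate+lactate against oxamate, and 2.99% and 3.07% for oxamate+lactate against control. ADI1, the dioxygenase of salvage, had 473 normalized counts in oxamate+lactate, 561 in oxamate and 550 in control. ENOPH1, which acts just before it, had 500 in oxamate+lactate, 455 in oxamate and 526 in control. GOT1, a transaminase, had 336 in oxamate+lactate, 307 in oxamate and 246 in control. It was the one of these 3 that was higher than control in both treated libraries. In the methionine cycle, MTR, methionine synthase, had 1353 in oxamate+lactate, 1441 in oxamate and 1317 in control. AHCY, which clears S-adenosylhomocysteine, had 1283 in oxamate+lactate, 1327 in oxamate and 1352 in control. AHCYL1, its relative, had 1356 in oxamate+lactate, 1269 in oxamate and 1382 in control. These 3 well-expressed genes of the cycle lay inside the ERCC range for oxamate against control. MAT1A, the liver form of the adenosyltransferase, was low, at 72 in oxamate+lactate, 67 in oxamate and 38 in control (0.80 for oxamate against control).

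For the supply of ornithine, ARG2, the mitochondrial arginase, had 416 normalized counts in oxamate+lactate, 392 in oxamate and 423 in control, and its exons overlap VTI1B. OAT, ornithine aminotransferase, had 444 in oxamate+lactate, 527 in oxamate and 430 in control. ALDH18A1, which makes the precursor of ornithine and proline from glutamate, had 1497 in oxamate+lactate, 1623 in oxamate and 1454 in control. The mitochondrial ornithine carrier SLC25A15 had 393 in oxamate+lactate, 421 in oxamate and 423 in control. Of the 5 genes of this list over the floor, 1 was at least 1.5-fold higher for oxamate against control, against 7.48% of all genes, and 0 were lower, against 3.98%. The higher one was GATM, which uses arginine for creatine and releases ornithine. It was low and highest in oxamate, at 74 in oxamate+lactate, 101 in oxamate and 54 in control (0.89). Of the further transcription factors, MYCN had 83 in oxamate+lactate, 92 in oxamate and 38 in control (1.25). The MYC partner MAX had 676 in oxamate+lactate, 687 in oxamate and 665 in control. SP1 had 1267 in oxamate+lactate, 1382 in oxamate and 1580 in control. Of the 4 transcription factors listed, 2 (MYC and MYCN) were at least 1.5-fold higher for oxamate against control, against 7.48% of all genes. None was 1.5-fold lower, against 3.98%. MYCN was low, with a mean of 71 over the libraries. OAZ3 had 299 in oxamate+lactate, 361 in oxamate and 313 in control, with exons that overlap MRPL9. NQO1, a quinone reductase that also binds ODC1 protein, had 64 in oxamate+lactate, 57 in oxamate and 78 in control. AZIN2, matched by its older symbol, was under the floor at 21 in oxamate+lactate, 23 in oxamate and 38 in control. Noncoding genes on the opposite strand share exon positions with ATP13A2, ATP13A3, ADI1, GOT1, GATM, MAX and NQO1, and their reads cannot be told apart without strand. Genes on the same strand share exon positions with ATP13A3, AHCY, DHPS and OAZ3, which strand would not separate.

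On the log2 scale, SAT1 had the widest range over the 3 libraries among the 9 genes. By the summed absolute difference of the log2 ratios of oxamate against control and of oxamate+lactate against oxamate, the 3 nearest genes over the floor were ZMAT1, RPS6KA2 and ALS2CL (0.0065, 0.0365 and 0.0753). ZMAT1 had 238 normalized counts in oxamate+lactate, 199 in oxamate and 466 in control. RPS6KA2 had 413 in oxamate+lactate, 346 in oxamate and 789 in control. ALS2CL had 63 in oxamate+lactate, 51 in oxamate and 123 in control. With 3 libraries, such likeness is easily met among 12292 genes.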

How the data were processed

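The authors deposited 1 table of normalized counts, with 1 column per library, and its values are treated as a score, since all are whole numbers and the normalization step is unknown. The submitters' processing notes name FastQC 0.11.9, STAR 2.7.1a, HTSeq 0.11.2 and hg19. No count model was fitted, and depth in reads is unknown. Per the labels' protocols, RNA came from equal numbers of cells, and ERCC RNA was added after extraction. From this table, ratios were computed with Python 3.11.15 and pandas 2.3.3, with a pseudocount of 1, which makes ratios of low genes slightly too small, and a floor of 50 on the mean over the 3 libraries. All 36 ERCC rows were left out of the genes. Percentages of all genes past 1.5-fold or 2-fold are the background of each count.

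The members and the lists were chosen with earlier results of these data known. Named further genes are those past 1.5-fold over the floor, and otherwise up to 3 per list by mean value. A few others (ARG2, ATP13A2, MAT2B, METTL16, AZIN2, GGCX) were added after their values were seen, as were the level bands. GC content and length come from GENCODE 29 (GRCh38), matched by symbol for 87.3% of genes over the floor, 9 of 9 members included. The computation was tested on simulated data. 1 marker of another lineage is not reported here.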

Additional observations from a re-analysis of the deposited data

How the results depend on the processing

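The alternatives were other scalings, pseudocounts of 0.5 and 10, removal of the GC and length trend, no floor, a floor of 200 and a fold of 2. Of 162 values of single genes, 160 moved by less than the ERCC SD of their comparison. A scaling shifts all genes of a comparison by nearly the same amount, here less than that SD. The scalings therefore could not move single genes or medians further. Values past 1.5-fold changed sign 0 times, but only SAT1 in the comparisons with control was past it. Under the GC and length trend AMD1 moved to 0.60 and SAT1 to -1.08 for oxamate against control. SAT1 ranged from -1.32 to -1.08 there and from -0.96 to -0.88 for oxamate+lactate against control. All 24 medians moved by less than the ERCC SD. With the GC and length trend removed, 1 of the 9 genes was 1.5-fold higher in oxamate than in control. With a floor of 200, 0 were lower in both comparisons with control, since SAT1 is under it, and with a fold of 2, 0 were lower in oxamate+lactate than in control. Among further pathway genes, for oxamate against control, 4 were lower with equal sums, relative to the median of all genes and with no floor, 5 were higher with equal ERCC sums, 1 was higher with a floor of 200, and 1 was higher and 1 lower with a fold of 2. For oxamate+lactate against oxamate, 1 was higher with equal sums, with equal ERCC sums, relative to the median and with no floor. For oxamate+lactate against control, 2 were lower with the GC and length trend removed, 3 with no floor and 0 with a floor of 200 or a fold of 2, and 3 were higher with equal ERCC sums or no floor, 0 with a floor of 200 and 1 with a fold of 2. The cause was not tested beyond what the floor and fold themselves remove. No paired analysis was possible because each condition has 1 library.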
